A study of Mus musculus with 6 samples.

Results

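Poly(A) RNA of mouse telencephalon, the forebrain region that gives rise to the cerebral cortex and basal ganglia, was examined for 8 genes of the machinery that moves lipid-anchored proteins into the primary cilium. The genes were chosen by name, as Arl13b, Inpp5e, Arl3, Arl2, Pde6d, Unc119, Unc119b and Tulp3, and all 8 were found among the 24444 gene symbols of the deposited table. Of the 6 libraries (C57BL/6J mice at E12.5), 3 are labelled Arl13b-/- (here Arl13b-null 1 to 3) and 3 are labelled wild-type (wild-type 1 to 3). The labels name neither the allele nor a treatment and do not say whether each library is a separate embryo, so each p-value here reflects how libraries, rather than known embryos, vary, and this variation may be partly technical.

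The primary cilium is a single antenna-like projection of most cells, including the neural progenitors and neurons of the embryonic forebrain. Proteins anchored to membranes by a lipid tail are carried through the cytosol by binding proteins that cover the tail, PDE6D for prenylated proteins and UNC119 and UNC119B for myristoylated ones. The GTPase ARL3 makes these carriers release their cargo in the cilium, and ARL2 is a close relative of ARL3 that also binds the carriers. INPP5E, a prenylated phosphoinositide phosphatase, is one such cargo and sets the lipid make-up of the ciliary membrane, while TULP3 delivers membrane proteins, among them receptors. In humans, INPP5E is a gene of Joubert syndrome, a ciliopathy with malformed axon tracts.

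The libraries did not all hold the same cell mixture, and 2 of them stood apart. The summed level of 6 markers of dividing cells was 196 normalized counts in Arl13b-null 2 and 9995 in wild-type 1, against 40040 to 49405 in the other 4 libraries. The summed level of 6 neuronal markers was 506972 in Arl13b-null 2 and 220654 in wild-type 1, against 124608 to 131578 in the other 4. Other cell types moved as well: the summed level of 5 markers of multiciliated and choroid plexus cells was 26580 in wild-type 1, nearly all of it Ttr (25702), against 292 to 2386 in the other 5 libraries. That sum was 806 and 812 in Arl13b-null 1 and 3, against 2295 and 2386 in wild-type 2 and 3. Dnah5, of the same list, overlapped between these libraries. Foxj1 of that list had 557, 161 and 445 in Arl13b-null 1 to 3, against 729, 772 and 740 in wild-type 1 to 3. Over all 6 libraries Foxj1, Ttr, Ccno and the sum itself were lower in Arl13b-null with no overlap. Dnah5 and Mcidas overlapped. Of tested genes, 3.59% were lower in Arl13b-null with no overlap. Summed markers of red blood cells ran from 15.8 (Arl13b-null 2) to 275968 (Arl13b-null 3). Those of mesenchyme ran from 527 (Arl13b-null 2) to 66369 (wild-type 2). Those of epidermis were 381, 32.5 and 33.5 in Arl13b-null 1 to 3, against 9347, 2586 and 1097 in wild-type 1 to 3. The epidermis sums thus did not overlap between genotypes, whereas those of mesenchyme and red blood cells did. The part of these mixtures in the values below was not tested. Lhx2, a transcription factor of the developing telencephalon, stood between 5070 and 12828 normalized counts in all 6 libraries. Each result is given for all 6 libraries and for Arl13b-null 1 and 3 against wild-type 2 and 3. The latter are called the 4 like libraries, for their markers of dividing cells and neurons. This choice of libraries was made with the values known. With 6 libraries none of the 8 genes passed the test when any 1 library was left out. In these 4 libraries genotype and sex coincide: Xist had 16292 and 19017 normalized counts in Arl13b-null 1 and 3, against 26.5 and 213 in wild-type 2 and 3, and Ddx3y, on the Y chromosome, had 0 and 1.23 against 1093 and 1258. The libraries left out differed from others of their genotype in these genes: Arl13b-null 2 had 244 normalized counts of Xist and 0 of Ddx3y, and wild-type 1 had 15101 of Xist and 0.537 of Ddx3y. No value here checks the genotype labels of these 2 libraries. In bulk tissue, fewer cells of a type and less RNA per cell cannot be told apart. Depth, estimated from the value of a single read, was 27600000 to 51500000 reads per library.

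Values below are normalized counts, obtained by undoing the authors' variance-stabilising transformation, and differences are Arl13b-null minus wild-type on the log2 scale of the deposited values. The smallest value of a member came from about 227 reads (Tulp3 in Arl13b-null 2), so reads were not scarce for any of the 8. All 8 passed the filter on low values. None of the 8 passed an adjusted p of 0.05 in limma with all 6 libraries, where 0% of 14249 tested genes passed (1.14% at an unadjusted p under 0.05), and none passed with 4 libraries, where 0.253% passed, 0.0702% higher and 0.182% lower in Arl13b-null. An unadjusted limma p under 0.05 was reached by 0 of the 8 in either comparison, beside 14.4% of tested genes with 4 libraries. Across the 4 libraries the highest value of each of the 8 was between 1.06 and 1.18 times the lowest. Such steadiness was common: the median SD over all tested genes was 0.082 on the log2 scale, and 5 of the 8 lay below it.

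**Figure D1:**
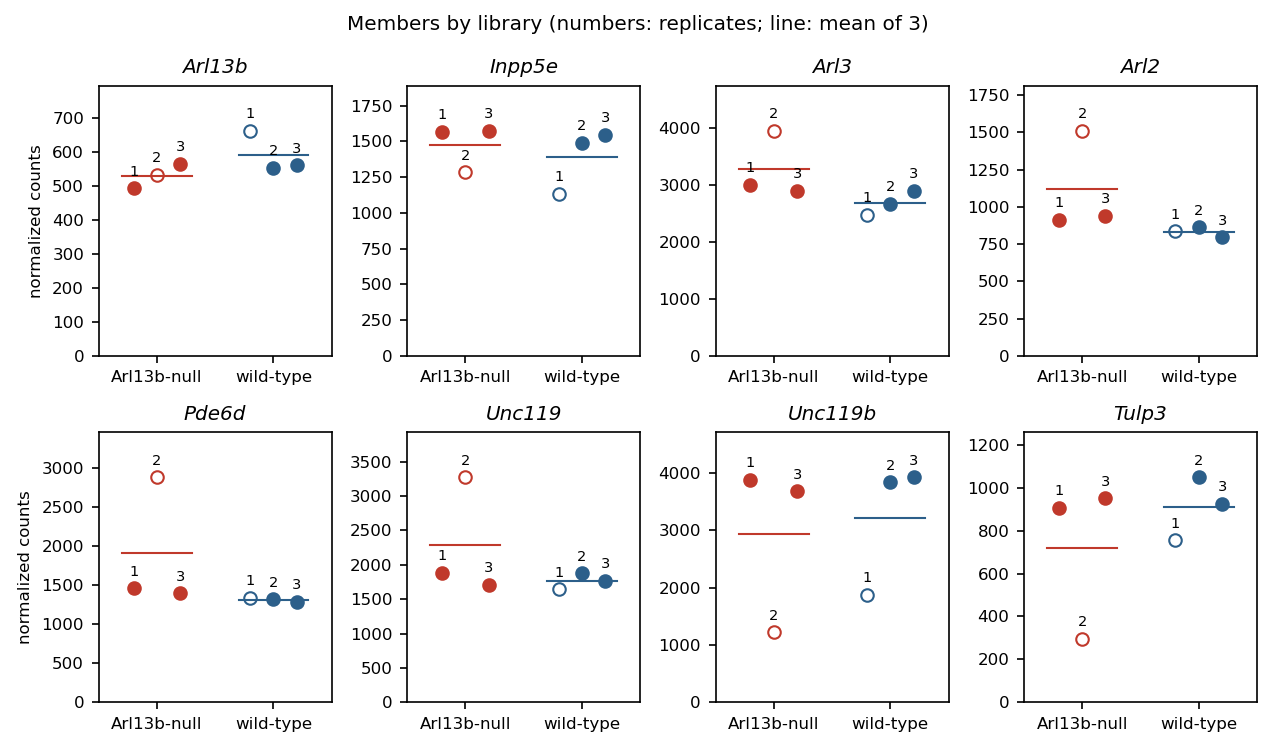
Normalized counts of the 8 members in each library, with Arl13b-null libraries on the left (red) and wild-type libraries on the right (blue) of each panel; digits are replicate numbers, lines are means of 3, and open circles mark Arl13b-null 2 and wild-type 1. The open red circle lies far from the other red points for Pde6d (2881) and Unc119 (3268), which it exceeds, and for Unc119b (1225) and Tulp3 (297), which it falls below, whereas the filled points of both genotypes lie close together in all 8 panels.

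Arl13b, the mutated gene, was transcribed in every library. It had 492, 532 and 564 normalized counts in Arl13b-null 1 to 3, against 661, 553 and 560 in wild-type 1 to 3. The highest Arl13b-null value lay above the wild-type values of replicates 2 and 3, so the groups overlapped. The mean level was 9.22 ± 0.088 (SD, n = 3) in Arl13b-null and 9.36 ± 0.13 (SD, n = 3) in wild-type libraries on the deposited scale, a difference of −0.14 (95% interval −0.63 to 0.35; limma adjusted p = 0.99). With 4 libraries the difference was −0.069 (95% interval −0.28 to 0.14; limma adjusted p = 0.756), which corresponds to a fold of between 0.823 and 1.1, and without Arl13b-null 1 it was 0.018. A gene-level value does not say which exons were read, so it checks neither the mutation nor the labels.

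The sequence just upstream of the annotated start is shown for Arl13b because it is the mutated gene, and for Unc119b and Tulp3 because these had the widest gaps of the 8 between Arl13b-null 2 and the other Arl13b-null libraries. Each is the 250 bases before the RefSeq start in GRCm38.p6, a build other than the mm9 named by the submitters, all on the minus strand: chr16:62847041-62847290 for Arl13b, chr5:115134976-115135225 for Unc119b and chr6:128355852-128356101 for Tulp3. Capitals mark GTTNCC, the core of the site bound by RFX factors, which are regulators of cilium genes, on either strand (GGNAAC on the other).
Arl13b: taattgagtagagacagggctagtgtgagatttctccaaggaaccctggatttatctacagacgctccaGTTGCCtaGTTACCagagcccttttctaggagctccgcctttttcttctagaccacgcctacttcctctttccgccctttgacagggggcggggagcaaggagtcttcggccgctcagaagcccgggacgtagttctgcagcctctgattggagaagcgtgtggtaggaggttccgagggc
Unc119b: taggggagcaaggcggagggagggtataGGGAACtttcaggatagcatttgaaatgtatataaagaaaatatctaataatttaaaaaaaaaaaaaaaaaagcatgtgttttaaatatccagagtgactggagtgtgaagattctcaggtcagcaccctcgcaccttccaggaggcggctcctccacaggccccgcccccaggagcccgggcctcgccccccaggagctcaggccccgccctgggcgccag
Tulp3: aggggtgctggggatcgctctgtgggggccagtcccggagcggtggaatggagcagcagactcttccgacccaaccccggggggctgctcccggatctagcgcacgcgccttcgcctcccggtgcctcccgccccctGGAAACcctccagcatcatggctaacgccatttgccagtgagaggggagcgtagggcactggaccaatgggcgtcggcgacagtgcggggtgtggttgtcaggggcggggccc

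The Arl13b window held this core at 2 positions, beginning 181 and 173 bases before the start and 2 letters apart from each other. The Unc119b window held it at 222 bases and the Tulp3 window at 113 bases before the start, both on the opposite strand. Taking the start nearest to the GENCODE gene start for each gene, 5 of 8 members held the core, Arl3 and Unc119 being the others, and Inpp5e, Arl2 and Pde6d did not, while 39.4% of 32851 windows of the same length held it. CCAAT, bound by the factor NF-Y, was found on either strand in 5 of 8 members and in 33.8% of windows. TTTGAA, the core of an element of cell cycle genes, was found in 3 of 8 members (Arl2, Pde6d and Unc119b, but not Tulp3) and in 16% of windows. The 3 motifs do not share positions in these windows, and a match in these letters is a description only.

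Inpp5e, which encodes the phosphatase delivered by PDE6D, lay within a narrow range in the 4 like libraries and was lower in both libraries that stand apart. It had 1567, 1283 and 1572 normalized counts in Arl13b-null 1 to 3, against 1134, 1489 and 1547 in wild-type 1 to 3. The 2 lowest values belonged to Arl13b-null 2 and wild-type 1, 1 of each genotype. The difference was 0.088 (95% interval −0.42 to 0.60; limma adjusted p = 0.99), or −0.046 without wild-type 1. With 4 libraries it was 0.047 (95% interval −0.084 to 0.18; limma adjusted p = 0.734), and although the Arl13b-null values lay above both wild-type values, this held for 29.3% of tested genes in that comparison. Of the exon bases annotated to Inpp5e, 20.3% are shared with Pmpca on the opposite strand, and whether the counting used strand is not given in the sources used here, so part of the value may be reads of Pmpca.

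Arl3 and Arl2, the GTPase pair that acts on the carriers, both had positive differences that did not pass the test. Arl3 had 2999, 3940 and 2890 normalized counts in Arl13b-null 1 to 3, against 2477, 2662 and 2894 in wild-type 1 to 3. Arl13b-null 3 and wild-type 3 were almost equal, and so the groups overlapped. The difference of Arl3 was 0.27 (95% interval −0.20 to 0.74; limma adjusted p = 0.99) with 6 libraries and 0.083 (95% interval −0.065 to 0.23; limma adjusted p = 0.579) with 4.

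Arl2, which also takes part in tubulin folding, had 913, 1509 and 942 normalized counts in Arl13b-null 1 to 3, against 838, 863 and 796 in wild-type 1 to 3. Every Arl13b-null value lay above every wild-type value, as was the case for 4.67% of tested genes, and wild-type 1 lay between the other wild-type libraries. The difference was 0.37 (95% interval −0.25 to 0.99; limma adjusted p = 0.99). By exact permutation over the libraries its two-sided p was 0.1, and 3 against 3 cannot go lower. With 4 libraries it was 0.15 (95% interval −0.018 to 0.32; limma adjusted p = 0.388), a fold of 1.11. Without Arl13b-null 2 the difference over the rest was 0.146, so most of the 6-library difference came with that library. Batf2 on the opposite strand shares 1.48% of the exon bases of Arl2.

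Pde6d, the carrier of prenylated proteins, was the other member whose groups did not overlap. It had 1464, 2881 and 1401 normalized counts in Arl13b-null 1 to 3, against 1340, 1324 and 1289 in wild-type 1 to 3. The 3 wild-type libraries were nearly equal, including the library with a raised neuronal level, and Arl13b-null 2 was about 1.97 times as high as Arl13b-null 1 and 3. The difference was 0.44 (95% interval −0.33 to 1.21; limma adjusted p = 0.99; p by exact permutation 0.1), or 0.115 without Arl13b-null 2. With 4 libraries it was 0.13 (95% interval −0.012 to 0.26; limma adjusted p = 0.379), a fold of 1.09. That 2 of 8 members were higher with no overlap stands beside 4.67% of tested genes in that direction, 3.59% in the other and 8.26% in either. With 4 libraries 3 of 8 members (Inpp5e, Arl2 and Pde6d) were higher with no overlap, and 0 were lower, beside 29.3% and 18.1% of tested genes.

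**Figure D2:**
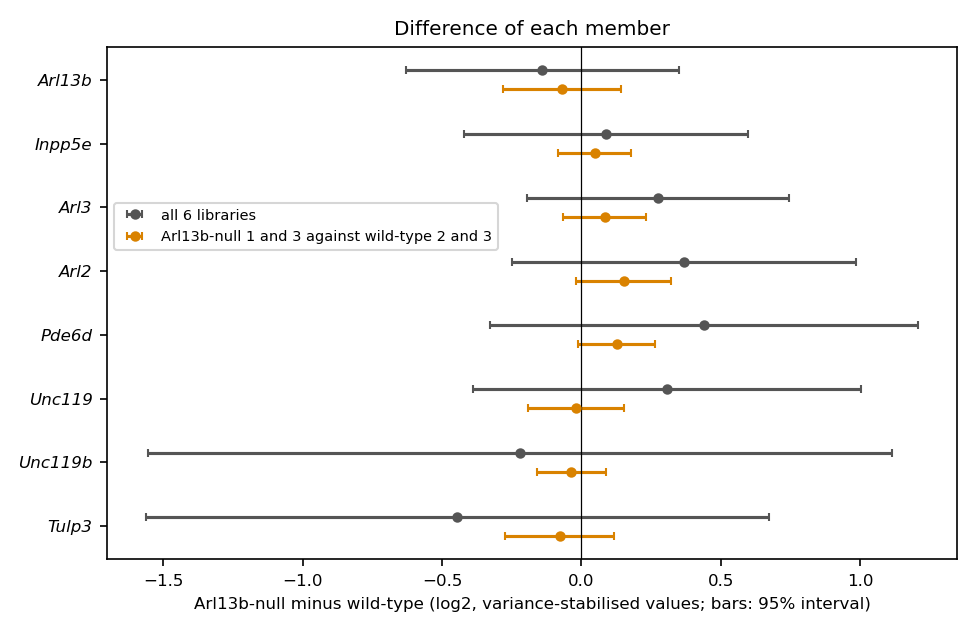
Difference of each member between Arl13b-null and wild-type libraries on the log2 scale, with the 95% interval of the limma fit as bars, for all 6 libraries (grey) and for Arl13b-null 1 and 3 against wild-type 2 and 3 (orange). All intervals cross 0; the orange ones are the narrower, with Arl2 (0.15) and Pde6d (0.13) farthest to the right.

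Unc119 and Unc119b, the carriers of myristoylated proteins, lay on opposite sides of the other libraries in Arl13b-null 2, and neither passed the test. Unc119 had 1886, 3268 and 1708 normalized counts in Arl13b-null 1 to 3, against 1642, 1880 and 1765 in wild-type 1 to 3. Apart from Arl13b-null 2 the genotypes overlapped. The difference of Unc119 was 0.31 (95% interval −0.39 to 1.003; limma adjusted p = 0.99) with 6 libraries and −0.020 (95% interval −0.19 to 0.15; limma adjusted p = 0.923) with 4. In the smaller comparison the sign of Unc119 turned without Arl13b-null 3 (0.049) and without wild-type 2 (0.024).

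Unc119b had 3885, 1225 and 3683 normalized counts in Arl13b-null 1 to 3, against 1878, 3840 and 3921 in wild-type 1 to 3. It was low in 1 library of each genotype, the 2 in which markers of dividing cells were low and neuronal markers high. The difference was −0.22 (95% interval −1.56 to 1.11; limma adjusted p = 0.99), and it was 0.304 without Arl13b-null 2. With 4 libraries the difference was −0.036 (95% interval −0.16 to 0.088; limma adjusted p = 0.785), or 0.002 without Arl13b-null 3.

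Tulp3, which delivers membrane proteins to the cilium, also had its 2 lowest values in Arl13b-null 2 and wild-type 1. It had 907, 297 and 951 normalized counts in Arl13b-null 1 to 3, against 756, 1047 and 925 in wild-type 1 to 3. Arl13b-null 2 was at 0.365 times the level of Arl13b-null 1 and 3, and wild-type 1 at 0.783 times that of wild-type 2 and 3. The difference was −0.45 (95% interval −1.56 to 0.67; limma adjusted p = 0.99), or 0.04 without Arl13b-null 2. With 4 libraries it was −0.078 (95% interval −0.27 to 0.12; limma adjusted p = 0.704), or 0.005 without wild-type 2.

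Among the Arl13b-null libraries the widest gaps belonged to Unc119b and Tulp3, and among the wild-type libraries to Unc119b and Inpp5e. Arl13b-null 2 was set against Arl13b-null 1 and 3, and wild-type 1 against wild-type 2 and 3, so that the labelled genotype was the same on both sides while Xist, and in wild-type libraries Ddx3y, differed. Arl13b-null 2 stood higher for Pde6d by 0.97, for Unc119 by 0.84, for Arl2 by 0.66 and for Arl3 by 0.41 on the log2 scale. It stood lower for Unc119b (−1.57), Tulp3 (−1.45) and Inpp5e (−0.28), and Arl13b itself differed by 0.01. Wild-type 1 stood lower for Unc119b (−1.02), Inpp5e (−0.40) and Tulp3 (−0.35) and higher for Arl13b (0.22), whereas Pde6d (0.04) and Arl2 (0.02) stayed at the level of the other wild-type libraries. The marker of dividing cells Mki67 stood at −6.48 for Arl13b-null 2 and at −1.92 for wild-type 1, and Stmn2, a regulator of microtubules in neurons, at 3.21 and 1.36. Over all tested genes the median size of these differences was 0.92 in Arl13b-null 2 and 0.44 in wild-type 1, so that only Pde6d, Unc119b and Tulp3 exceeded it in Arl13b-null 2, and only Unc119b in wild-type 1. Each of these is a comparison of 1 library with 2 and has no test.

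**Figure D3:**
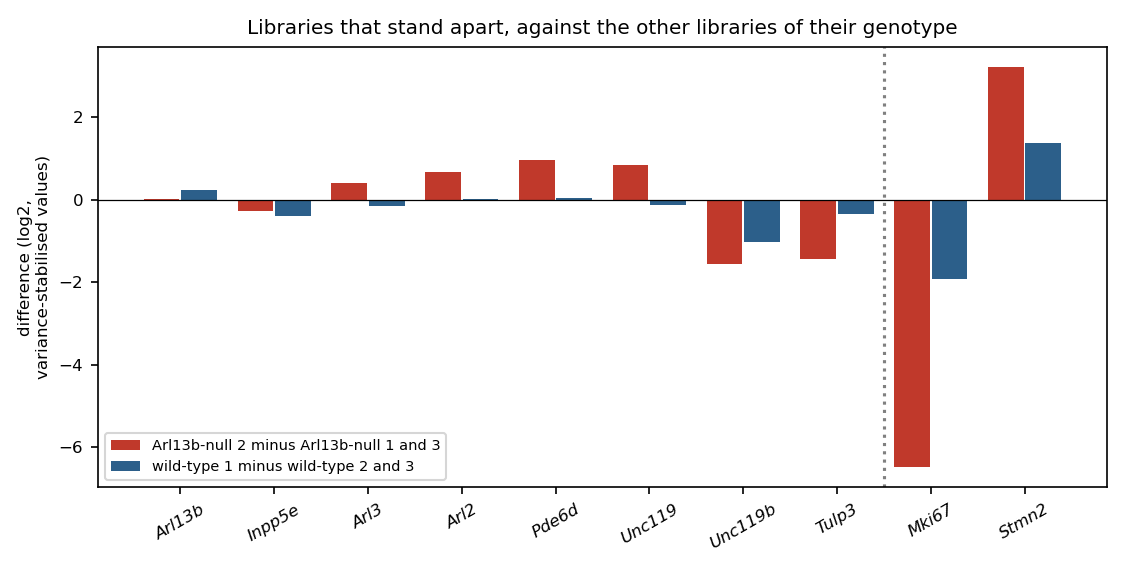
Difference on the log2 scale of Arl13b-null 2 from the mean of Arl13b-null 1 and 3 (red, left bar) and of wild-type 1 from the mean of wild-type 2 and 3 (blue, right bar), for the 8 members and, right of the dotted line, Mki67 and Stmn2. Unc119b, Tulp3 and Inpp5e point down in both, as does Mki67, while Pde6d (0.97 against 0.04) and Arl2 (0.66 against 0.02) are high in Arl13b-null 2 alone.

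Levels of different members were compared per kilobase of annotated exon. Because counts of longer transcripts are larger, normalized counts were divided by the length of the merged GENCODE exons. These may differ from the authors' annotation. The length, from 2178 bases (Pde6d) to 9342 (Tulp3), merges all annotated transcripts of a gene, whichever were read. The order below may therefore partly follow the lengths used. In the 4 like libraries Arl3 was highest, at 1070 to 1200 normalized counts per kilobase. Unc119b followed at 800 to 852, Unc119 at 698 to 771, Pde6d at 592 to 672, Inpp5e at 346 to 366 and Arl2 at 230 to 273, with no overlap between neighbours. Arl13b (96.8 to 111) and Tulp3 (97.1 to 112) were lowest and overlapped. Over all 6 libraries this order was less clear, since Unc119b averaged 637 ± 322 in Arl13b-null and 698 ± 251 in wild-type libraries (SD, n = 3 each), against 934 ± 349 and 720 ± 48.5 for Unc119 and 880 ± 384 and 605 ± 12 for Pde6d.

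Differences between paired members within a library do not depend on the scaling between libraries, and 3 pairs were compared. Exact permutation of 3 against 3 libraries cannot go below 0.1. No pair could therefore pass 0.05, and the values are given as a description. Unc119b minus Unc119 was 1.02, −1.37 and 1.08 on the log2 scale in Arl13b-null 1 to 3, against 0.19, 1.0 and 1.12 in wild-type 1 to 3. The 4 like libraries thus held these paralogues in nearly the same proportion, and the order of the pair was turned round in Arl13b-null 2. The mean difference between genotypes for this pair was −0.53, and 0.28 without Arl13b-null 2. Arl3 minus Arl2 averaged 1.51 ± 0.15 in Arl13b-null and 1.61 ± 0.15 in wild-type libraries, and Inpp5e minus Arl13b averaged 1.37 ± 0.19 and 1.14 ± 0.36 (SD, n = 3 each). Exact two-sided permutation gave p = 0.7, 0.5 and 0.4 for the 3 pairs and 0.7 for each after Benjamini-Hochberg adjustment.

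The rest of the pathway was followed in 5 lists with 51 genes, of which 47 passed the filter on low values. None of the 47 passed the test in either direction, with 6 libraries or with 4. With 6 libraries 25 lay above 0 and 22 below, with a median of 0.019, beside a median of 0.003 over all tested genes. With 4 libraries 27 lay above and 20 below, with a median of 0.005 beside 0.023. The groups of 3 did not overlap for 2 of the 47, Nras and Ift122, both higher, beside 8.26% of tested genes.

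**Figure D4:**
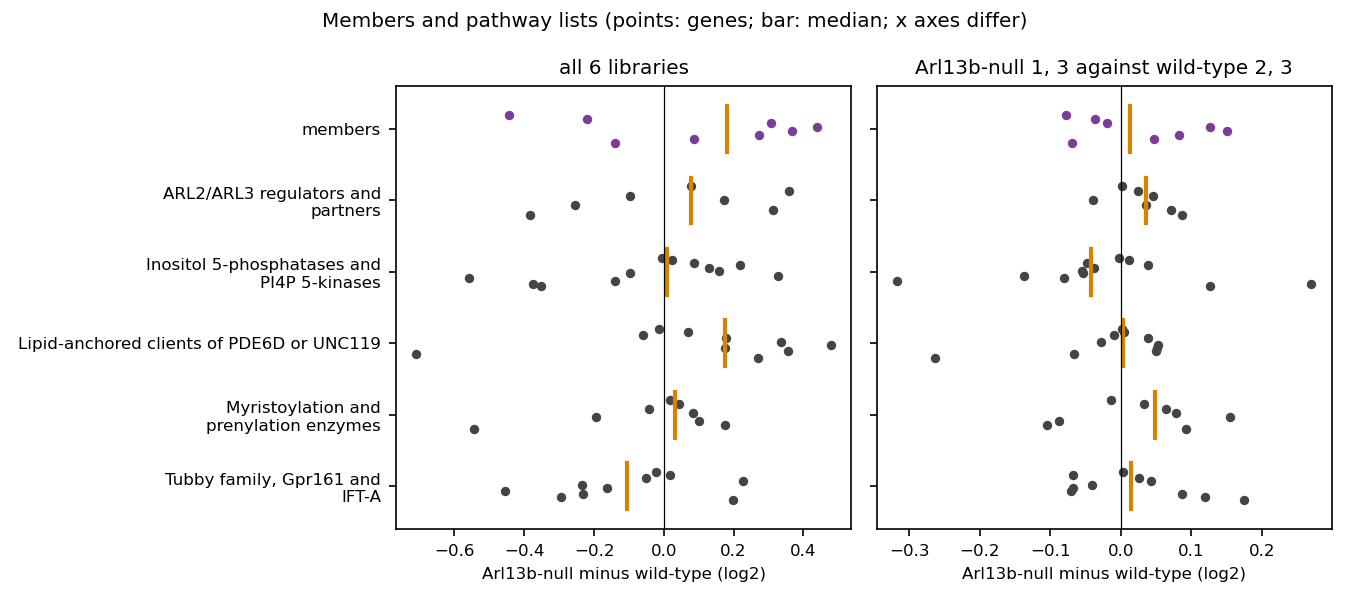
Differences between Arl13b-null and wild-type libraries on the log2 scale for the members (purple) and the genes of the 5 lists (grey), with the median of each row in orange, for all 6 libraries (left) and for Arl13b-null 1 and 3 against wild-type 2 and 3 (right). The x axes differ: the genes span −0.71 to 0.48 on the left and −0.32 to 0.27 on the right, and the rows spread around 0 in both.

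Among regulators and partners of ARL2 and ARL3, 7 of 8 were tested and 0 passed, with a median of 0.077 over 6 libraries and 0.035 over 4. Rp2, which encodes the protein that switches ARL3 off and is X-linked, had 835, 335 and 842 normalized counts in Arl13b-null 1 to 3, against 686, 758 and 833 in wild-type 1 to 3. It was lowest in Arl13b-null 2, as Unc119b and Tulp3 were. Its difference with 4 libraries was 0.071 (limma adjusted p = 0.701). Elmod1 and Elmod2, from the family of proteins that switch off ARL2, differed with 4 libraries by 0.086 and 0.045 (limma adjusted p = 0.662 and 0.853). Arl13a, a relative of Arl13b, was listed at 0 in 5 of 6 libraries and had 0.534 normalized counts, about 1 read, in wild-type 1.

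Among 12 genes for lipid-anchored clients of PDE6D or UNC119, 10 were tested and 0 passed. The median difference of the list was 0.176 with 6 libraries and 0.003 with 4. Nras, a prenylated GTPase of growth factor signalling, differed by 0.27 with 6 libraries and 0.05 with 4, and Src, a myristoylated kinase, by −0.061 and −0.067, none of them past the threshold. The transducin genes Gnat1 and Gnat2, clients of UNC119 in photoreceptors, were under the filter, with at most 13.1 and 9.2 normalized counts in any library.

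Among 8 enzymes of myristoylation and prenylation, all were tested and 0 passed, with medians of 0.031 over 6 libraries and 0.048 over 4. Nmt1, which attaches myristate, had 2532, 1850 and 2595 normalized counts in Arl13b-null 1 to 3, against 1698, 2370 and 2427 in wild-type 1 to 3. With 4 libraries the difference of Nmt1 was 0.093 (limma adjusted p = 0.449) and that of Zmpste24, a protease that trims prenylated proteins, was −0.11 (limma adjusted p = 0.478). Both of these had groups of 2 without overlap, a state shared by 47.5% of tested genes.

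Among 12 inositol phosphatases and kinases around the lipids that INPP5E acts on, 0 passed, with medians of 0.009 over 6 libraries and −0.043 over 4. Synj1, a phosphatase of synaptic vesicle recycling, had 2017, 4283 and 2085 normalized counts in Arl13b-null 1 to 3, against 3661, 1865 and 1883 in wild-type 1 to 3. It was high in both libraries with a raised neuronal level, and with 4 libraries its difference was 0.13 (95% interval 0.002 to 0.25; limma adjusted p = 0.341). Inpp5d, a phosphatase of blood cells, differed by 0.27 with 4 libraries (limma adjusted p = 0.459), and Pip5k1a, a kinase that makes the lipid removed by INPP5E, by −0.055 (limma adjusted p = 0.710).

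Among 11 genes of the tubby family, the receptor GPR161 and the transport complex that binds TULP3, 10 were tested and 0 passed. Ift122, a subunit of that complex, had 1330, 1379 and 1356 normalized counts in Arl13b-null 1 to 3, against 1152, 1215 and 1151 in wild-type 1 to 3. All 3 Arl13b-null values exceeded all wild-type values, and neither Arl13b-null 2 nor wild-type 1 stood out. Its difference was 0.20 (95% interval −0.20 to 0.59; limma adjusted p = 0.99) with 6 libraries and 0.17 (95% interval 0.031 to 0.32; limma adjusted p = 0.275) with 4. Wdr19, another subunit, differed by −0.16 with 6 libraries and by 0.12 with 4 (limma adjusted p = 0.99 and 0.559).

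Genes with a pattern close to that of Arl13b or Inpp5e were sought over the 6 libraries, as those with the smallest root mean square difference after centring each gene on its mean. For Arl13b they included Slc9a9, an endosomal ion exchanger (0.034 on the log2 scale), and Rnf150 (0.043), where the median of all tested genes was 0.423. For Inpp5e they were Ythdf1, a reader of methylated RNA (0.011), Cct5, a chaperonin subunit (0.015), and Nom1 (0.019), where the median was 0.432. Slc9a9 had 121, 140 and 145 normalized counts in Arl13b-null 1 to 3, against 189, 140 and 141 in wild-type 1 to 3, so that it shared with Arl13b a high value in wild-type 1 and a low one in Arl13b-null 1. Ythdf1 had 3343, 2764 and 3361 against 2408, 3194 and 3255, low in Arl13b-null 2 and wild-type 1 as Inpp5e was. The likeness rests on 6 libraries, of which 2 stand apart.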

How the data were processed

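The values the authors deposited are on a log2 scale, between 5.13 and 18.39, and are variance-stabilised counts of 6 libraries, grouped here by labelled genotype. Named without a role, per the submitters' processing notes, are DESeq2, DESeq 1.16.1, Salmon 0.9.1, STAR 2.6.0, CASAVA and the build mm9. The lowest value, shared by all libraries, stands for 0 reads and fixes the constant of the transformation, which was inverted to normalized counts. The most frequent smallest value of a library was taken as 1 read. Under 30 reads, only 54.8% to 81.9% of the values came within 0.05 of whole reads, so no count test was run. Genes with a mean at least 1 above the lowest value (14249) entered limma 3.58.1 (R 4.3.3), using a mean-variance trend and two-sided Benjamini-Hochberg adjustment over all of them at 0.05. The fit was also run on simulated data with noise drawn independently for each gene. That run does not show how the test performs where a whole library stands apart. Members, lists and the choice of 4 libraries were made with earlier results of these data known. Named were the members, any list gene past the threshold, the gene with the smallest p of each list with 6 libraries and the 2 with 4, and the 3 nearest patterns of Arl13b and Inpp5e. Arl13a, Gnat1 and Gnat2 were named after their values were seen. Some genes that the rule names are not reported here. Promoter sequences and names came from RefSeq (GRCm38.p6), where all 8 members matched, and exon lengths from GENCODE. All pairs of libraries differed beyond sampling noise, with a chi-square of at least 10.9 times its degrees of freedom. Alternatives were other filters, scalings, units and moderation, library weights, a replicate block and leaving out each library. Figures were drawn with matplotlib 3.10.9.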

Additional observations from a re-analysis of the deposited data

How the results depend on the processing

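No member and no listed gene passed the threshold under any of 16 alternatives with 6 libraries or 12 with 4, and the smallest limma adjusted p of a member was 0.597 with 6 libraries (Arl2, library weights) and 0.37 with 4 (Pde6d, no filter). Of 128 values of the members with 6 libraries 5 turned sign, and of 96 with 4 libraries 5 did. Library weights turned Arl13b to 0.02, Unc119 to −0.098, Elmod2 to 0.093, Rp2 to 0.096 and Wdr19 to 0.189 and gave 214 genes past the threshold in place of 0. The cause was not tested. Quantile normalization turned Nras to −0.002 with 4 libraries. With 4 libraries 36 genes passed, but 0 without a filter, 59 with quantile normalization, 7 without the mean-variance trend and 98 with robust moderation. Leaving out each library in turn gave 6 (without wild-type 2) to 725 genes (without Arl13b-null 1) with 4 libraries and 0 to 4 with 6. In the same way, with 6 libraries, Arl13b ranged from −0.182 to −0.066, Inpp5e from −0.046 to 0.18, Unc119b from −0.561 to 0.304, Tulp3 from −0.704 to 0.04, Elmod1 from −0.755 to 1.2, Elmod2 from −0.592 to 0.025, Rp2 from −0.454 to 0.136, Zmpste24 from −0.831 to 0.004, Nmt1 from −0.059 to 0.254, Pip5k1a from −0.547 to 0.029, Synj1 from −0.188 to 0.472, Inpp5d from −0.127 to 0.168 and Wdr19 from −0.352 to 0.133. With 4 libraries Arl13b ranged from −0.157 to 0.018, Unc119 from −0.089 to 0.049, Unc119b from −0.074 to 0.002, Tulp3 from −0.161 to 0.005, Elmod2 from −0.063 to 0.154 and Src from −0.137 to 0.004. Fits that leave 1 library in a group assume that it varies like the other group.

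Whether the replicate numbers pair the libraries is not known. Deviations from the group means of same-numbered libraries correlated at −0.71, −0.71 and 0.62 across genes, and those of Arl13b-null 2 and wild-type 1 at 0.71. With 1 library standing apart in each group, such correlations follow where that library sits. They cannot show a pairing or its absence. With the replicate block, Arl13b differed by −0.14 as without it, and 0 genes passed.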

Other observations

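Some genes of the lists differed widely between libraries of one genotype. They were chosen here after their values were seen. Elmod1 had 5751 normalized counts in Arl13b-null 2, against 509 and 504 in Arl13b-null 1 and 3, and 3044 in wild-type 1, against 495 and 453 in wild-type 2 and 3. Inpp5j, an inositol phosphatase gene, had 435 in Arl13b-null 2, against 19.7 and 17.9, and 232 in wild-type 1, against 22.5 and 18.9. Inppl1, which encodes another phosphoinositide phosphatase, went the other way, with 357 in Arl13b-null 2, against 3313 and 3551, and 1215 in wild-type 1, against 3565 and 3484. Tub, the founding member of the tubby family, had 14269 in Arl13b-null 2, against 4205 and 3803, and 8053 in wild-type 1, against 4063 and 4334. In the 4 like libraries the highest value of each was 1.08 (Inppl1) to 1.26 (Inpp5j) times its lowest.

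Near patterns were sought for all members, and those of Pde6d and Unc119b are given here outside the naming rule. The genes with a pattern closest to Pde6d over the 6 libraries were Ndufb9, Atp5d and Cox5a, subunits of the mitochondrial respiratory chain and ATP synthase. Their root mean square differences were 0.026, 0.032 and 0.032, where the median of all tested genes was 0.565. This likeness rests mainly on 1 library, Arl13b-null 2, at 2.04, 1.92 and 1.97 times the level of Arl13b-null 1 and 3. Cox5a had 3940, 7758 and 3869 normalized counts in Arl13b-null 1 to 3, against 3718, 3749 and 3730 in wild-type 1 to 3. Those closest to Unc119b were Mre11a, a DNA repair gene (0.018), Ing5 (0.033) and Sap30 (0.037), where the median was 0.684. Mre11a had 1286, 378 and 1236 normalized counts in Arl13b-null 1 to 3, against 596, 1268 and 1343 in wild-type 1 to 3.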
